A study of Mus musculus with 28 samples.

Results

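Broad open domains are stretches of accessible chromatin that were unusually wide in the control cells of a mouse bone study. They were chosen from the ATAC-seq peak lists of the 6 control libraries, 3 of growth plate skeletal stem/progenitor cells (gpSSPCs) and 3 of periosteal skeletal stem/progenitor cells (pSSPCs). Peaks of 2000 bp or more on chromosomes 1 to 19 and X were merged where they overlapped by at least 1 bp, and a region was kept if all 3 control libraries of at least 1 population held such a peak in it. This left 117 domains, of the 521 regions with such a peak in any control library and of 150884 merged control peaks of all lengths.

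The study sorted Prx1-lineage cells of mouse bone, negative for CD31, CD45 and Ter119 and positive for the Ai9 reporter, as CD73+ cells of the growth plate (gpSSPCs) or Sca1+ cells of the periosteum (pSSPCs). All bulk libraries came from mice given as 20 weeks old. ATAC-seq and RNA-seq were each done on 3 control and 3 CKO libraries of each population, where CKO stands for conditional deletion of Zmpste24 (Z24), the protease that matures lamin A. The genotype label is PrxCre; Z24fl/fl for all of these libraries, controls included, so control and CKO were taken from the sample titles. Prx-Cre acts in limb mesenchyme and its descendants, so both populations of a mouse carry the deletion in the CKO, and the labels do not say how many mice each library pooled or whether replicates came from separate mice.

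ATAC-seq reads where a transposase can cut DNA, and a peak is a stretch where cuts pile up above the local background. Open chromatin at most active promoters is a short nucleosome-depleted stretch around the start of transcription. Wider stretches are known from CpG-rich promoters, from start sites that fire in both directions and from enhancer clusters of cell identity genes. The growth plate is cartilage, whose cells make aggrecan and type II collagen, and the periosteum is the fibrous sheath from which bone grows in width.

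The sequences at the starts of 6 genes are shown because they stand for the kinds of domain found. They are Agbl5, Sema4c, Id4, Twist1, Ppp6r2 and Nrp1. Agbl5 was broad in all 12 libraries, and Sema4c is first by median peak length among the domains broad in gpSSPCs alone. Id4 and Twist1 are transcription factor genes, and Ppp6r2 is defined by pSSPCs. Nrp1 had a difference in RNA that passed with the replicate block (below). Each sequence is the RefSeq promoter window of GRCm38.p6 (mm10), 250 bases before to 50 after a RefSeq start of the gene. It is written 5′ to 3′ on the strand of the gene, in lower case with every CG dinucleotide in capitals. Where a gene had several windows, one inside a domain was taken first, so all 6 windows lie wholly inside their domains by choice. The RefSeq start is not always the GENCODE 5′ end used for the genes below. It lies 792 bp further into the gene at Sema4c, 469 bp at Nrp1, 158 bp at Agbl5 and 6 bp at Ppp6r2, so the Sema4c and Nrp1 windows lie wholly inside the annotated gene, while at Id4 it lies upstream and at Twist1 both are the same base.
Agbl5 (chr5:30888602-30888901, plus strand): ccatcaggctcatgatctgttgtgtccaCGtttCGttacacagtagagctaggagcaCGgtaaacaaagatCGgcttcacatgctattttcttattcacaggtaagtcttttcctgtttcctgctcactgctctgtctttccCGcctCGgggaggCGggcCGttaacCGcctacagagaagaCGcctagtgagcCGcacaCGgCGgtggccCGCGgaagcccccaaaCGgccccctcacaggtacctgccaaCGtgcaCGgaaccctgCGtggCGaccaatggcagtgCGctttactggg
Sema4c (chr1:36557508-36557807, minus strand): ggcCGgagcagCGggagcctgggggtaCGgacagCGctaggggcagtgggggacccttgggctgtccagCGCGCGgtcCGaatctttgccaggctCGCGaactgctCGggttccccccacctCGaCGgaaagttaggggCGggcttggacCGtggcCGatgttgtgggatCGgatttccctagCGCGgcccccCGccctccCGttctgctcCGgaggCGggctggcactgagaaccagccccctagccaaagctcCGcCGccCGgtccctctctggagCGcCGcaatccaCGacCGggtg
Id4 (chr13:48260866-48261165, plus strand): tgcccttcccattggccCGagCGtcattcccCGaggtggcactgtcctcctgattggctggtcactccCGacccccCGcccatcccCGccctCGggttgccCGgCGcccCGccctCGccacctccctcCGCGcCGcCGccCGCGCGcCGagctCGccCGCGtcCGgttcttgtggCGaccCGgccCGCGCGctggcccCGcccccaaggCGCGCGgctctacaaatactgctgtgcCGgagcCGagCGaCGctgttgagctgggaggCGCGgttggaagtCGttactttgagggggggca
Twist1 (chr12:33957421-33957720, plus strand): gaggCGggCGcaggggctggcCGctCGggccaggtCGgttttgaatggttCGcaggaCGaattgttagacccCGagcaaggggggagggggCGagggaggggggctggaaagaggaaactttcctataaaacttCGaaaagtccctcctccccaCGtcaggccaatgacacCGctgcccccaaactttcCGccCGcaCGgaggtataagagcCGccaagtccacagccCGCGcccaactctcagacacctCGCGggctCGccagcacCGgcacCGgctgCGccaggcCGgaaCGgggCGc
Ppp6r2 (chr15:89211309-89211608, plus strand): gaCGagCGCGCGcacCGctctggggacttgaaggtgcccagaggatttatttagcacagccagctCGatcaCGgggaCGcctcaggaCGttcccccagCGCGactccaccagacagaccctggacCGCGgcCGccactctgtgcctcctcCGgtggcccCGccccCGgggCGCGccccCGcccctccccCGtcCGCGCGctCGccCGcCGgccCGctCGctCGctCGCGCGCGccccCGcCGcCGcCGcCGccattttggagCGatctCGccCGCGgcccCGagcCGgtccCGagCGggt
Nrp1 (chr8:128358823-128359122, plus strand): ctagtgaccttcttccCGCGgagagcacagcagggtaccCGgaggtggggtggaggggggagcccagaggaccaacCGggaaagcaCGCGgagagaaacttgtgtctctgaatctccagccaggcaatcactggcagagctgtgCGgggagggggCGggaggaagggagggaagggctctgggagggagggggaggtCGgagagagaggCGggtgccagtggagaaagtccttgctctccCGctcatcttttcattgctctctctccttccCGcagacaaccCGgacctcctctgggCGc
These windows hold between 14 CG dinucleotides (Nrp1) and 47 (Ppp6r2), where the median of the 16433 protein-coding promoter windows is 14 (quartiles 4 and 25). Id4 holds 39, Sema4c 30, Twist1 27 and Agbl5 21. Their GC content runs from 57.3% (Agbl5) to 76.3% (Ppp6r2), against a median of 57.0% (quartiles 48.7 and 64.7). Only 75 of the 103 protein-coding genes with their 5′ end in a domain have a window (72.8%), fewer than the 80% needed to compare the set with other promoters, so that comparison was void. Motifs were searched in these windows on both strands, as strings that may overlap one another. The E-box CANNTG, found in 68.6% of all windows, was present in that of Agbl5. The TEAD string GGAATG, in 13.2% of all windows, was present in that of Id4. RUNX (AACCACA, 4.76% of all windows), SOX (ACAATGG or ACAAAGG, 8.07%), AP-1 (TGANTCA, 7.07%), CEBP (TTGCNNAAT, 2.21%), palindromic NFI (0.0304%) and CTCF core (0.0669%) strings were in none of the 6.

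Of the 117 domains, 103 were broad in all 3 control gpSSPC libraries but not in all 3 control pSSPC libraries, 3 were the reverse and 11 were broad in all 6. Domain lengths had a median of 2263 bp and ran from 2053 to 4240 bp. Most were just past the limit, with 67 under 2300 bp and 4 over 3000 bp. Together they span 276005 bp and are found on all 20 chromosomes searched. These lengths and counts follow from the rule and are a description. In gpSSPCs the regions nearest to the limit inside it were one next to B430305J03Rik and one at Ift80, each with a shortest peak of 2001 bp, and among the nearest outside it were those at Kdelc1 and Rgl2, with a shortest peak of 1997 bp. In pSSPCs the shortest peak was 2004 bp in the region near Psd2 inside the limit and 1991 bp in that at Egr1 outside it. Such near misses were many, as 71 gpSSPC regions had a shortest peak of 1900 to under 2000 bp and 55 one of 2000 to under 2100 bp.

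The libraries that define the domains differed in depth. Tags after filtering numbered 19271923, 18009251 and 40668538 in the control gpSSPC libraries and 13932350, 12250713 and 26371117 in the control pSSPC libraries. Peaks of 2000 bp or more numbered 272, 232 and 239 in the former and 74, 25 and 213 in the latter. The pSSPC replicate with 25 such peaks thus limits how many domains pSSPCs could define. Without replicate 2 of each population, 31 domains instead of 11 were broad in both populations. Those broad in all remaining control pSSPC libraries, but not in all gpSSPC ones, were 26 instead of 3. Breadth was also defined by rank, as the widest 2000 peaks of each library. By rank, 640 regions were broad in all control gpSSPC libraries but not in all control pSSPC ones. The reverse held for 352, and 466 were broad in both. How much of the excess in gpSSPCs depth accounts for was not tested.

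**Figure D1:**
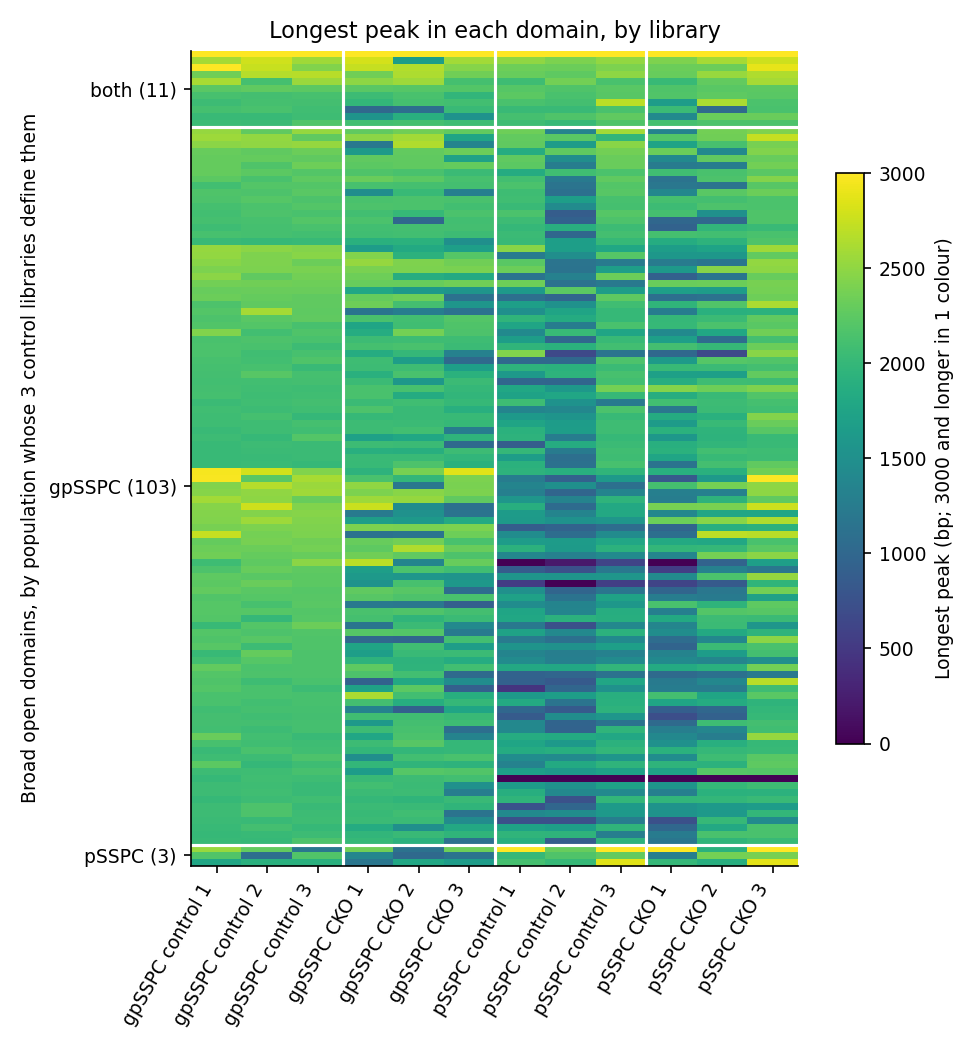
Longest peak (bp, colour) in each of the 117 domains (rows) in the 12 ATAC-seq libraries (columns), with rows grouped by the population whose 3 control libraries define the domain. The 11 domains of both populations are wide in all control columns by the rule and 6 of them are at 2000 bp or more in all 12, while the 103 of gpSSPCs are shorter in most pSSPC libraries. In pSSPC CKO replicate 3 the median over all 117 is 2228 bp, above the 2158 to 2169 bp of control gpSSPCs.

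Most domains lay over gene starts. The annotated 5′ end of a protein-coding gene (GENCODE M21) fell within 89 of the 117 domains (76.1%), and the start of any protein-coding transcript within 101 (86.3%). Among all peaks of the control libraries the share with a protein-coding 5′ end was 11.2 to 12.6% in gpSSPCs and 13.2 to 17% in pSSPCs, and it was 58.6 to 67.8% among their peaks of 1500 to under 2000 bp and 66.2 to 78.7% among all their peaks of 2000 bp or more. In all, 103 protein-coding genes, 0.473% of those annotated, had their 5′ end in a domain, and these are called covered genes from here on. Of the 16 domains without a transcript start, 12 were intergenic, 3 were in introns and 1 was in an exon. Transcripts started on both strands within 29 domains (24.8%), against 15.8 to 19.9% of the peaks of 1500 to under 2000 bp and 12.2 to 22.8% of those of 2000 bp or more.

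Measured from the annotated 5′ end, domains reached further into the gene than upstream of it. That end is the outermost annotated start of the gene, so any start further in counts as downstream. Reach from the starts in use was not measured. In the 76 domains with 1 covered gene the median reach was 836 bp upstream and 1447 bp downstream of the 5′ end, and 58 of them extended more downstream than upstream. The end of the first exon was passed in 71 of the 76. Sema4c, a transmembrane semaphorin, had 663 bp upstream and 2308 bp downstream, counted from a 5′ end 792 bp before its RefSeq start. Skil was the other way round, with 1712 bp upstream and 979 bp downstream. A further 13 domains held the 5′ ends of 2 or more protein-coding genes, in 12 of them on both strands. Among them were Rpl7 with Rdh10 (a ribosomal protein and a retinol dehydrogenase), Ift80 with Smc4 (a ciliary transport protein and a condensin subunit), Htra2 with Aup1, Cep57 with Fam76b, Zbtb25 with Zbtb1 and Clcn2 with Polr2h.

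**Figure D2:**
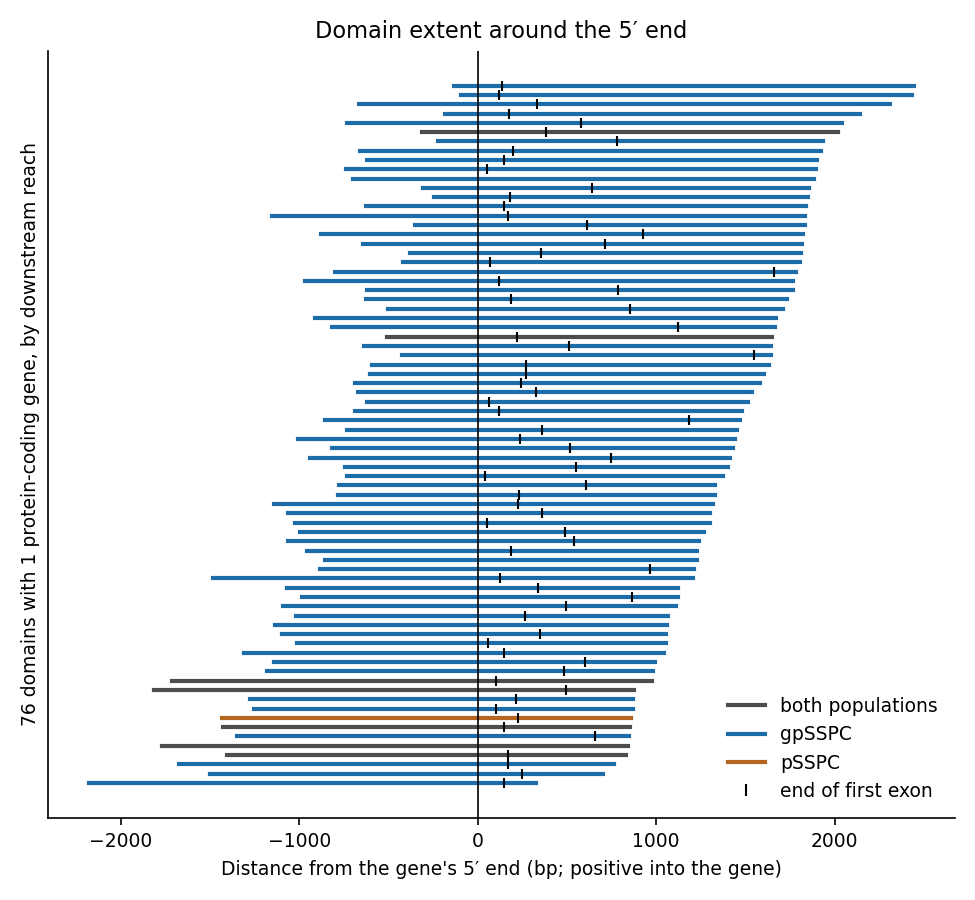
Extent of the 76 domains with 1 covered gene relative to its 5′ end (x axis, bp, positive into the gene), sorted by downstream reach, with the end of the first exon as a tick. The median domain reaches 836 bp upstream and 1447 bp downstream, and the domains that reach further upstream than downstream lie in the lower part.

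Of the 11 domains broad in all 6 control libraries, 7 held a protein-coding 5′ end. Among the genes were Skil (SnoN, a repressor of SMAD signalling), Agbl5 (a tubulin deglutamylase), Pde8a (a cAMP phosphodiesterase), Nemp1 (an inner nuclear membrane protein), Rai1 and Zbtb46 (a zinc finger factor known from dendritic cells). Others lay at an internal start of Nr3c1, the glucocorticoid receptor gene, and 4602 bp from Klf9, a gene that glucocorticoids induce. The longest, 4240 bp at chr17:39843081-39847320, lies over the noncoding gene Gm42418, a place where the mouse assembly holds ribosomal RNA sequence present in many copies. Without it 116 domains remained and the longest was 3305 bp. The CKO libraries played no part in the choice, and 6 of the 11 were also broad in all 6 of them, among them those at Skil, Agbl5 and Zbtb46, next to Klf9 and over the ribosomal sequence. At Agbl5 the longest peak was 2227, 2271 and 2241 bp in control gpSSPCs, 2235, 2207 and 2202 bp in CKO gpSSPCs, 2207, 2173 and 2233 bp in control pSSPCs and 2173, 2237 and 2248 bp in CKO pSSPCs. The 4 groups overlapped and the whole range was 2173 to 2271 bp.

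Among the 54 domains broad in all 3 control gpSSPC libraries and in no control pSSPC library, the longest by median peak length were at Sema4c, Spaca6, Wdr26 (a ubiquitin ligase subunit), Cdk13 (a kinase of transcription elongation), Ptprk (a receptor tyrosine phosphatase), Klhl29, Id4 (an inhibitor of basic helix-loop-helix factors) and Nectin3 (a cell adhesion molecule). At Sema4c the peak was 2960, 2794 and 2436 bp in control gpSSPCs and 1941, 1889 and 1960 bp in control pSSPCs. The pSSPC peaks were thus just under the limit. At Cdk13 it was 2460, 2500 and 2571 bp in control gpSSPCs against 1290, 976 and 1354 bp in control pSSPCs. Most of these domains were open in pSSPCs too, and 51 of the 54 held a peak of some length in all 3 control pSSPC libraries. The median of the longest peak in the 54 was 1485, 1332.5 and 1627.5 bp there, and the median of all peaks of these libraries was 498, 464 and 530 bp. These are unlike sets, as the first takes the longest peak of each domain. The second takes every peak, of which 13.2 to 17% held a protein-coding 5′ end.

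The domain at Snorc, singled out after its values were seen, had no such peak. Snorc encodes a small proteoglycan of cartilage, and its domain, chr1:87471053-87473142 (mm10), begins 782 bp inside the gene and holds a later annotated transcript start, at position 87472539. The peak was 2014, 2077 and 2063 bp in control gpSSPCs and 2033, 2062 and 2095 bp in CKO gpSSPCs. None of the 6 pSSPC libraries listed any peak in it, the only domain of the 117 for which this held. As Snorc was picked for this pattern, it is given as a description with no test. Of the 117 domains, 36 were broad in all 6 gpSSPC libraries, and 3 of these were broad in no pSSPC library, namely Snorc, an intergenic domain 22260 bp from Fam76a and an intergenic domain 52889 bp from Nfatc1. The peaks near Fam76a were 890 to 1923 bp and those near Nfatc1 1148 to 1732 bp in the pSSPC libraries.

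RNA of Snorc was also higher in gpSSPCs. In the RNA-seq libraries replicates 2 and 3 of each group were nearly alike, as over genes with 5 to 99 counts their chi-square statistic divided by its degrees of freedom was 0.805 to 0.972, against 10.2 to 14.2 for pairs with replicate 1. They differed by no more than sampling noise there (1.59 to 1.92 from 20 counts up, against 53.2 to 71.4) and were summed and counted as 1 sample. Snorc was 6550 and 9470 CPM in the 2 control gpSSPC samples and 1860 and 2150 CPM in the 2 control pSSPC samples, where CPM is the count scaled to 1e6 counts in the sample and the second sample is the summed one. The CKO samples had 6680 and 8650 CPM in gpSSPCs and 1660 and 1870 CPM in pSSPCs. The populations did not overlap in either genotype. The log2 difference between the controls was 1.96 (SE 0.37), which did not pass the edgeR test (adjusted p = 0.279) and did with the replicate number as a block (1.94, SE 0.17, adjusted p = 3.94e-09), in a fit that called 3.61% of all genes. Between CKO and control gpSSPCs it was -0.05 (SE 0.36). In sorted bulk samples, more cells of a type and more RNA per cell cannot be told apart.

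Another domain that lacked a peak in a control pSSPC library lay at chr7:78952840-78955150, in the intergenic stretch between Isg20 and Acan, the aggrecan gene. Its peak was 2245, 2311 and 2240 bp in control gpSSPCs and 1535, 2132 and 1604 bp in CKO gpSSPCs. In pSSPCs it was 530, 0 and 559 bp in control and 610, 855 and 1963 bp in CKO, so pSSPC CKO replicate 3 overlapped the gpSSPC CKO libraries. Slc8a3, a sodium-calcium exchanger gene, had 2160, 2299 and 2254 bp in control gpSSPCs and 888, 744 and 1199 bp in control pSSPCs. Its peaks in CKO gpSSPCs, 1684, 2156 and 2079 bp, did not overlap those in CKO pSSPCs, 553, 1320 and 1184 bp.

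The rule was met in pSSPCs but not in gpSSPCs by 3 domains. They lay at Ppp6r2, a regulatory subunit gene of protein phosphatase 6, and in intergenic stretches 71491 bp from Irf2bp2 and 43941 bp from Psd2. At Ppp6r2 the peak was 2010, 2173 and 2283 bp in control pSSPCs and 2181, 1095 and 2188 bp in control gpSSPCs. The populations overlapped there, and the domain missed the gpSSPC rule through replicate 2. Only the domain near Psd2 was broad in no control gpSSPC library, with 2121, 2004 and 2863 bp in control pSSPCs and 1771, 1906 and 1899 bp in control gpSSPCs.

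The covered genes were set against lists of genes with known roles. Of all protein-coding symbols 0.474% were covered, so a count of 0 in lists of this size is close to the background, and no list was tested. Of the lists examined, the periosteal and fibroblast list had 1 covered gene of 28 (3.57%, Twist1, a basic helix-loop-helix factor), the immediate early list 1 of 29 (3.45%, Nfil3, a leucine zipper repressor), the signalling list 2 of 48 (4.17%, Skil and Id4) and the lamin and nuclear envelope list 1 of 13 (7.69%, Lemd3, an inner nuclear membrane protein that binds SMADs). The chondrocyte list had none of 29 by the 5′ end of the gene, and Snorc by an internal start. Tendon genes (8, with Egr2 by an internal start), osteoblast genes (15), marrow stromal genes (12), limb patterning genes (21), Hox genes (39), YAP and mechanosensing genes (17), p53 and cyclin-dependent kinase inhibitor genes (18) and housekeeping genes (15, with Ywhaz by an internal start) had none, nor did the markers of myeloid, lymphoid, erythroid, endothelial, muscle and Schwann cells. At Sox9, the cartilage regulator, the peak over the 5′ end was 1426, 1397 and 1507 bp in control gpSSPCs and 1681, 1221 and 1420 bp in control pSSPCs. At Col2a1 it was 1603, 1503 and 1543 bp in control gpSSPCs and was absent from 2 of the 3 control pSSPC libraries, with 491 bp in the third. Of the genes of transcription factor families, zinc finger genes named Zfp aside, 9 of 506 were covered (1.78%), against 0.474% of all protein-coding symbols. They were Bach2, Elf2, Id4, Klf12, Nfil3, Nfkb2, Pou2f1, Sp3 and Twist1. Of the Zfp genes set aside, 3 of 391 were covered (0.767%). The share of all symbols also counts genes with no peak over the 5′ end, so it is a low background for genes with open promoters.

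Breadth was then followed into the CKO libraries. Of the 114 domains broad in control gpSSPCs, 73, 77 and 60 had a peak of 2000 bp or more in the 3 CKO gpSSPC libraries, 36 in all of them and 17 in none. All 114 kept a peak of some length in every CKO gpSSPC library, and 81 had one of 1500 bp or more in all 3. Since the controls chose the domains, a lower number in any other library follows in part from the choice and was not tested. Peaks of 2000 bp or more over the whole list, which were not chosen this way, numbered 171, 161 and 94 in CKO gpSSPCs against 272, 232 and 239 in the controls (mean 142 ± 41.9 against 248 ± 21.4, SD, n = 3). The groups did not overlap, and the exact permutation test gave p = 0.1 (two-sided), the smallest possible here. In pSSPCs the numbers were 52, 173 and 613 in CKO and 74, 25 and 213 in control (exact permutation test, two-sided, p = 0.6).

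Among the 17 domains broad in no CKO gpSSPC library, the longest peak fell far in some and barely in others. Id4 had 2448, 2442 and 2460 bp in control gpSSPCs and 1240, 1519 and 1140 bp in CKO gpSSPCs. In the CKO its domain held 2, 2 and 3 peaks instead of 1, which still covered 89.4, 90.2 and 84.4% of it. Nrp1, the gene of a co-receptor for semaphorins and VEGF, had 2193, 2591 and 2256 bp in control and 1168, 1272 and 1132 bp in CKO, where 2 peaks covered 79.7, 78.6 and 72.6% of the domain, against 89.2, 96.4 and 84.0% in control. Garnl3 had 2029, 2134 and 2075 bp in control and 1988, 1986 and 1999 bp in CKO, a loss that rests on the limit. Nectin3 had 2429, 2557 and 2432 bp in control gpSSPCs and 1686, 1615 and 1833 bp, the longer of 2 peaks, in CKO gpSSPCs, whereas in pSSPCs it had 1632, 1528 and 1576 bp in control and 2322, 2471 and 2648 bp in CKO. Its longest peak was thus wider in the CKO of one population and in the control of the other, with no overlap in either.

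The CKO libraries also show how far the separation of the populations held in data that the rule did not use. The 54 domains of gpSSPCs alone had a peak of 2000 bp or more in 29, 33 and 25 cases in the CKO gpSSPC libraries and in 5, 16 and 37 cases in the CKO pSSPC libraries (means 29.0 ± 4.0 and 19.3 ± 16.3, SD, n = 3). The populations overlapped, because pSSPC CKO replicate 3 exceeded every CKO gpSSPC library. Over all 114 domains the CKO counts were 73, 77 and 60 in gpSSPCs and 27, 53 and 96 in pSSPCs, which also overlapped. Replicate 3 of CKO pSSPCs was the deepest library, with 46756821 tags, and held 613 peaks of 2000 bp or more. In CKO gpSSPCs the 3 libraries had 12941435, 15154444 and 39801835 tags and 171, 161 and 94 long peaks, so the deepest had the fewest, while in control pSSPCs the deepest had the most. The part of depth in these differences was not tested.

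**Figure D3:**
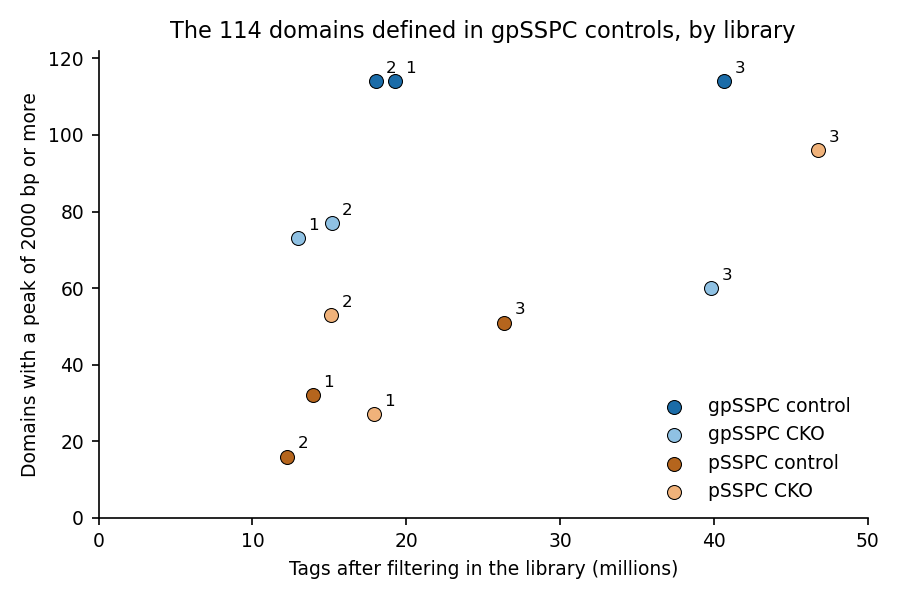
Number of the 114 domains defined in control gpSSPCs that hold a peak of 2000 bp or more (y axis) against the filtered tags of the library (x axis), 1 point per library with its replicate number. Control gpSSPCs are at 114 by the rule, CKO gpSSPCs lie at 60 to 77, and pSSPC libraries run from 16 to 96.

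RNA-seq from the same kinds of sorted cells gave the level of the covered genes, which were detected more often than protein-coding genes at large. Total counts ranged from 1333260 to 5315709 per library. Of the 103 covered genes 102 were listed in the count tables, 97 passed the filter on low counts and 49 had at least 5 CPM in all 8 samples. Counts were seen for 91.2 to 98.0% of the 102 in the control gpSSPC libraries and for 87.3 to 98.0% in the control pSSPC libraries, against 50.7 to 61.8% and 47.9 to 60.2% of all protein-coding genes. Per length of exon the median covered gene was at 1.35, 1.53 and 1.52 in the control gpSSPC libraries, on the log2(CPM per kb + 0.1) scale, and all protein-coding genes were at -2.55, -0.64 and -0.63. Genes with a shorter peak over the 5′ end in all 3 control gpSSPC libraries were at 1.31, 1.52 and 1.51 on that scale, close to the covered genes in each library. In control pSSPCs the covered genes were at 1.45, 1.14 and 1.43 and genes with shorter peaks at 1.01, 1.75 and 1.82, so the difference was positive in replicate 1 and negative in the nearly alike replicates 2 and 3. The order depends on the scaling by exon length. Without it, on the log2(CPM + 0.1) scale, the median covered gene was above the genes with shorter peaks in all 6 control libraries, at 4.03, 4.53 and 4.49 against 3.65, 3.86 and 3.86 in gpSSPCs and at 4.17, 4.37 and 4.29 against 3.18, 4.09 and 4.13 in pSSPCs.

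Per length of exon, the level rose with the length of the peak over the 5′ end up to the class of 1000 to under 1500 bp and changed little beyond it in gpSSPCs. In control gpSSPC replicate 2 the median was -1.36 for peaks under 500 bp, 1.22 for 500 to under 1000 bp, 1.75 for 1000 to under 1500 bp, 1.84 for 1500 to under 2000 bp and 1.77 for 2000 bp or more. In control pSSPC replicate 2 the last 3 classes were at 1.91, 2.19 and 2.33, with 43 genes in the last, and in replicate 1 they were at 1.40, 2.10 and 3.22. Quartile ranges of neighbouring classes from 1000 bp upward overlapped in every control library. The most abundant covered genes per length were Hsp90ab1, a cytosolic chaperone gene, at a mean of 346 CPM per kb over the 8 samples, Rpl7 at 147, Vapa, an endoplasmic reticulum protein gene, at 73.0 and Nfil3 at 40.3. At the other end Gm45785 had no counts in any sample and Agbl5 at most 0.637 CPM, although its domain was among the most constant. Agbl5, Clcn2, Lpxn, Ube2ql1 and Gm45785 were the listed covered genes that failed the filter.

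**Figure D4:**
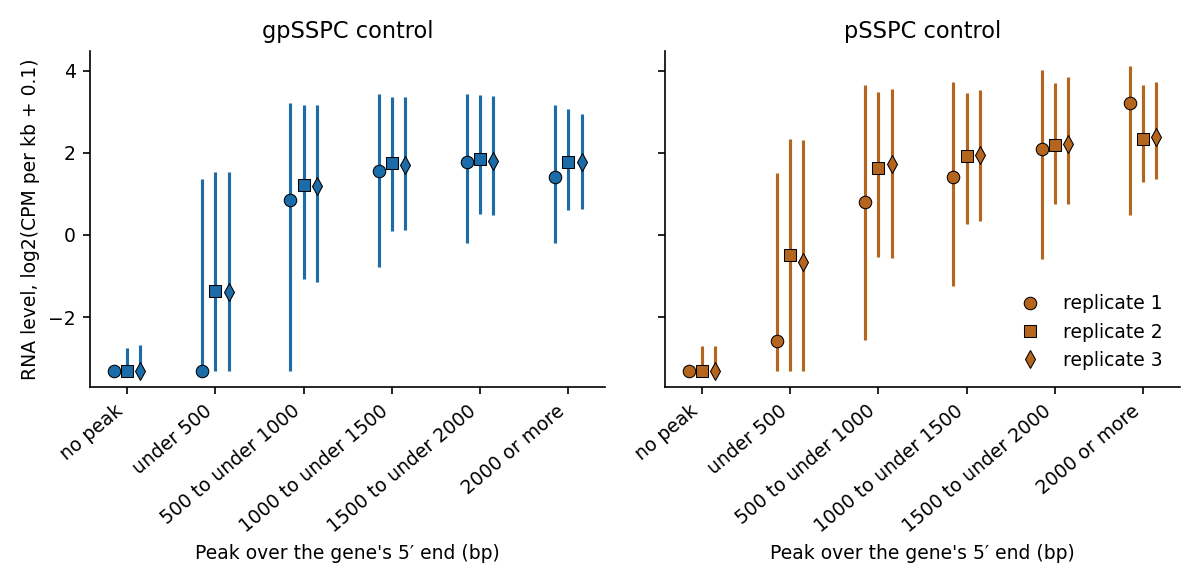
RNA level of protein-coding genes (y axis, log2 of CPM per kb of exon plus 0.1) by the median length of the peak over the 5′ end in the control libraries of the same population (x axis, bp), with the median (marker) and quartiles (line) of each control library. Medians climb from genes without a peak to genes with peaks of 1000 to under 1500 bp and lie between 1.40 and 3.22 from there on.

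Control gpSSPCs and pSSPCs were then compared for the RNA of the covered genes. With edgeR no covered gene passed the test between control gpSSPCs and control pSSPCs (adjusted p under 0.05), where 0% of the 13173 genes tested were called. DESeq2 called 2 covered genes, both lower in gpSSPCs, where it called 0.966% of all genes higher and 2.14% lower. At an unadjusted p under 0.05, 1 covered gene was higher and 6 were lower in gpSSPCs, out of 97, against 2.18% and 4.01% of all genes. The 44 tested genes of the domains of gpSSPCs alone had a median log2 difference of 0.06, the 97 covered genes 0.09 and all genes -0.03. In the CKO the same 44 genes had a median of -0.15 and no covered gene was called by edgeR (0% of all genes), by edgeR with the block (1.25% of all genes higher and 1.11% lower) or by DESeq2 (1.12% higher and 0.524% lower). At an unadjusted p under 0.05, 2 were higher and 4 lower, against 2.35% and 1.96% of all genes.

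With the replicate number as a block, 3 covered genes passed between the controls, all lower in gpSSPCs, and none passed as higher. In that fit 2.37% of all genes were called lower and 1.24% higher. Sptbn1, which encodes the spectrin beta chain of the membrane skeleton, was at 118 and 225 CPM in control gpSSPCs and at 853 and 633 CPM in control pSSPCs. Its log2 difference was -2.16 (SE 0.57, adjusted p = 0.385 by edgeR) without the block and -2.29 (SE 0.34, adjusted p = 4e-05) with it. Lamc1, the laminin gamma 1 chain of basement membranes, was at 48.4 and 57.3 CPM in gpSSPCs and at 239 and 161 CPM in pSSPCs. The log2 difference was -1.96 (SE 0.48, edgeR adjusted p = 0.379) without the block and -1.94 (SE 0.43, adjusted p = 0.00488) with it. Nrp1 was at 9.67 and 24 CPM in gpSSPCs and at 33.0 and 136 CPM in pSSPCs, with a log2 difference of -2.33 (SE 0.90, edgeR adjusted p = 0.698) without the block and -2.20 (SE 0.64, adjusted p = 0.0466) with it. The control samples of the populations did not overlap for any of these genes. All 3 are broad in gpSSPCs by the rule, but at Sptbn1 the lengths were 2103, 2083 and 2070 bp in control gpSSPCs and 1788, 1596 and 2375 bp in control pSSPCs, so the longest was in pSSPCs. The height of the signal, as the highest pileup in the domain scaled to 1e6 tags, was lower in gpSSPCs for each replicate number, as it was over peaks in general. The median over all peaks was 1.61, 1.61 and 0.959 in control gpSSPCs and 2.01, 1.80 and 1.48 in control pSSPCs. At Lamc1 it was 4.88, 5.33 and 3.27 in control gpSSPCs and 7.25, 8.00 and 5.5 in control pSSPCs, with no overlap. At Sptbn1 it was 4.57, 4.83 and 2.34 against 4.74, 5.06 and 4.97, and at Nrp1 5.09, 4.22 and 2.46 against 5.31, 5.31 and 4.32, where the populations overlapped.

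Other genes named for their domains did not pass. Klhl29, broad in gpSSPCs alone, was at 4.21 and 2.74 CPM in control gpSSPCs and at 40.8 and 14.6 CPM in control pSSPCs, with a log2 difference of -3.05 (SE 1.17, edgeR adjusted p = 0.698). Twist1 was at 10.1 and 32.4 CPM in gpSSPCs and at 31.4 and 60.6 CPM in pSSPCs, which overlapped. Within each replicate number Twist1 was lower in gpSSPCs, and it did not pass with the block (edgeR adjusted p = 0.471). Slc8a3, with 24.8 and 43.2 CPM against 9.42 and 7.78 CPM, was the covered gene with an unadjusted p under 0.05 in the other direction (log2 difference 1.95, SE 0.84, edgeR adjusted p = 0.767). Id4 was at 98.0 and 96.7 CPM in control gpSSPCs, 162 and 111 CPM in CKO gpSSPCs, 84.8 and 126 CPM in control pSSPCs and 91.9 and 83.4 CPM in CKO pSSPCs. Skil, at 411 and 260 CPM in control gpSSPCs and 351 and 151 CPM in control pSSPCs, also overlapped. It was higher in gpSSPCs within each replicate number and did not pass with the block (edgeR adjusted p = 0.584).

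**Figure D5:**
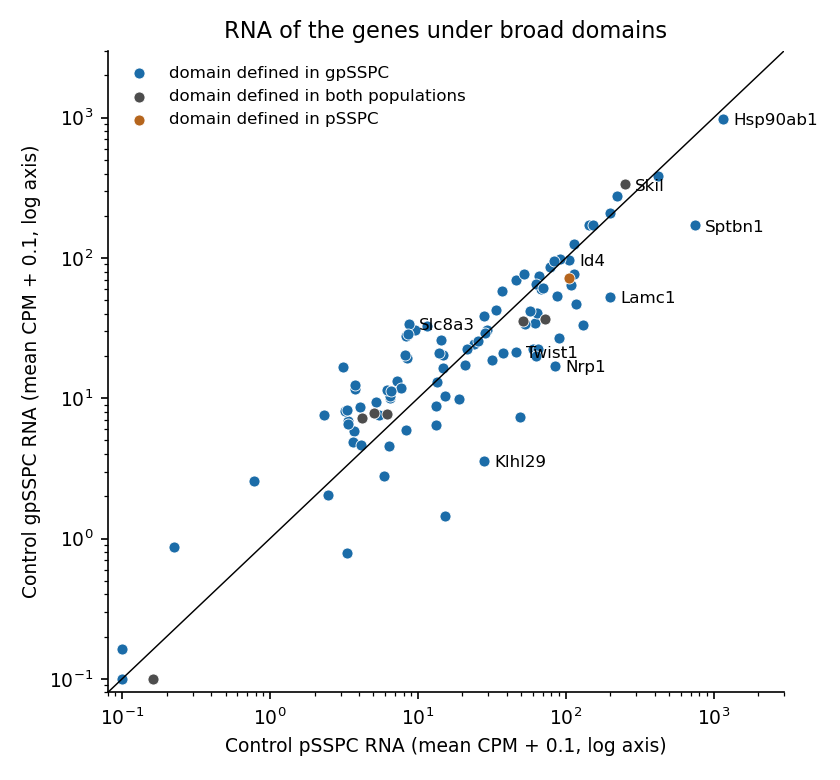
Mean RNA level (CPM plus 0.1, log axes, n = 2 samples per group) of the 102 listed covered genes in control pSSPCs (x axis) and control gpSSPCs (y axis), coloured by the population whose controls define the domain. Points scatter on both sides of the line of equality, with Sptbn1, Lamc1, Nrp1 and Klhl29 below it and Slc8a3 above it.

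The labels were checked against markers of the populations. The chondrocyte list summed to 80400 and 66700 CPM in control gpSSPCs and 19400 and 12600 CPM in control pSSPCs. The periosteal and fibroblast list, led by Prg4, separated the populations less. It summed to 24100 and 43000 CPM in control gpSSPCs and 45400 and 51100 CPM in control pSSPCs. In the CKO it overlapped (24600 and 47100 CPM against 37000 and 62200 CPM). Within each replicate number it was lower in gpSSPCs in both genotypes. Nt5e (CD73) was at 244 and 201 CPM in control gpSSPCs and 51.8 and 55.3 CPM in control pSSPCs, and Ly6a (Sca1) at 299 and 845 CPM and at 1160 and 2840 CPM. Acan was still at 473 and 408 CPM in control pSSPCs. The erythroid list, led by Hbb-bs, summed to 13.0 and 4820 CPM in control gpSSPCs and 14.1 and 1340 CPM in control pSSPCs, high in the summed replicates 2 and 3 and low in replicate 1. The lymphoid list, led by Ebf1 with 7 of its 13 genes at 0 in all libraries, summed to 156 and 132 CPM in control gpSSPCs and 2280 and 806 CPM in control pSSPCs. Ebf1 is also in the marrow stromal list, and only 2 of the 13 lymphoid genes passed the filter on low counts. The osteoblast list, led by Ibsp, summed to 54200 and 22000 CPM in control gpSSPCs and 10300 and 4220 CPM in control pSSPCs. Endothelial markers, led by Plvap with none of the 12 at 0 in all libraries, summed to 43.3 and 76.9 CPM in control gpSSPCs and 114 and 179 CPM in control pSSPCs, higher in pSSPCs as were Lamc1 and Nrp1. Marrow stromal genes were also higher in pSSPCs (1690 and 2120 CPM against 4640 and 3520 CPM), and tendon genes (2810 and 2500 CPM against 1470 and 1580 CPM) and Schwann and neural markers (273 and 390 CPM against 58.1 and 193 CPM) in gpSSPCs. Myeloid and muscle markers overlapped between the control populations, though muscle markers were lower in gpSSPCs within each replicate number (1.26 and 19.9 CPM against 1.57 and 32.7 CPM). The part of other cells in the RNA differences was not tested.

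Between CKO and control, no covered gene passed the test in either population, with or without the block. With edgeR 0% of the 13173 genes tested were called in each, and with the block 0.0607% in gpSSPCs and 0.0987% in pSSPCs. At an unadjusted p under 0.05 there were 0 covered genes in gpSSPCs and 1 in pSSPCs, against 29 (0.22%) and 277 (2.1%) of all genes, and DESeq2 called none (0% of all genes in both). The median log2 difference of the 97 covered genes was -0.14 in gpSSPCs (all genes 0.00) and -0.12 in pSSPCs (all genes -0.03). Genes of domains that were broad in none of the CKO gpSSPC libraries (16 tested) had a median of -0.09, and those of domains broad in all 3 (29 tested) one of -0.15. The deleted gene itself, Zmpste24, was at 4.63 and 15.9 CPM in control and 1.13 and 7.96 CPM in CKO gpSSPCs, and at 0.785 and 16.7 CPM in control and 0 and 7.47 CPM in CKO pSSPCs. The log2 differences of -1.14 (SE 1.93) and -1.19 (SE 1.92) did not pass edgeR. The groups overlapped, but within each replicate number the CKO was lower in all 4 pairs. With the block the differences were -1.66 (SE 1.30) and -1.32 (SE 1.26), which did not pass either (edgeR adjusted p = 1 and 0.85). The counts do not show which exons the reads came from.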

How the data were processed

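ATAC-seq peak lists were deposited per library. The authors aligned reads to mm10 with Bowtie2 and called peaks with MACS2 2.2.7.1 without a control library, at a q-value limit of 0.05 with a shift of -100 and an extension of 200 bp. Each deposited list holds a pileup (signal), a fold enrichment ratio and -log10 p- and q-values for every peak. Here only positions, lengths and pileups were used. Length may depend on depth and on how MACS2 joins nearby cuts, which was not tested here. No count of reads per region was used here.

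RNA-seq values were deposited as counts per gene, which the authors made from molecule-deduplicated reads with STAR and HTSeq. Covered genes were matched to GENCODE M21 (GRCm38) by Ensembl gene identifier, and genes of the lists by symbol. The 4 groups entered 1 edgeR 4.0.16 quasi-likelihood fit (TMM, filterByExpr, Benjamini-Hochberg adjustment over all genes, threshold 0.05), in R 4.3.3 with limma 3.58.1. Replicates 2 and 3 were summed, which left 2 samples per group and 4 residual degrees of freedom. DESeq2 1.42.0, other filters and scalings, and other definitions of breadth were alternatives. Deviations of samples with the same replicate number correlated at 0.551 to 0.61 in every comparison, so the number was used as a block. Blocked values are given where they change a call. As replicates 2 and 3 are nearly alike, these correlations mostly reflect how replicate 1 differs from them. They cannot show that samples with the same number were otherwise paired. Whether replicates came from separate mice is not stated in the labels, so p-values measure the spread between these samples. On data simulated for the control comparison at the real spread (12388 genes), 0% of genes changed 2-fold and 9% of those changed 8-fold were recovered.

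Peak regions were merged with Python 3.11.15, pandas 2.3.3 and numpy 2.4.6, exact permutation tests used scipy 1.17.1 and plots matplotlib 3.10.9. Promoter sequences are from RefSeq. Sequence around peak summits was not analysed here, as no genome of this build was used. All count columns could be mapped to samples.

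Members, lists and tests were chosen with earlier results of these data known. Named were the longest domains of each class, covered genes of the lists, called genes and Zmpste24. Garnl3, Slc8a3, Snorc and the regions near Acan, Fam76a and Nfatc1 were named after their values were seen. Some named items are not reported here.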

Additional observations from a re-analysis of the deposited data

How the results depend on the processing

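The number of domains follows the definition of breadth. The order below is all, those that met the rule in gpSSPCs but not in pSSPCs, the reverse, and both. The number was 117, 103, 3 and 11 as reported. It was 1216, 885, 81 and 250 at a limit of 1500 bp, and 1, 0, 0 and 1 at 3000 bp. With the widest 2000 peaks of each library it was 1458, 640, 352 and 466, and with 2 of 3 libraries required 240, 175, 26 and 39. Leaving out each replicate in turn gave 143 to 172, 115 to 146, 4 to 26 and 13 to 31. The share over a protein-coding 5′ end was 76.1% as reported, 0% at 3000 bp (the ribosomal domain), 65.5% for the widest 2000 peaks, 86.3% by any transcript start and 73.8 to 74.8% without each replicate.

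Broad in all 3 CKO libraries of their population were 36 of 114 gpSSPC domains and 8 of 14 pSSPC domains. With peaks of any length, or covering 50% of the domain, these were 114 and 14. At 1500 bp the first was 81, and without each CKO replicate, an alternative chosen after seeing the data, 45 to 58 (58 without replicate 3) and 8 to 11.

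Calls among covered genes, higher and lower in gpSSPCs, were 0 and 0 by edgeR for the controls, 2 and 4 with each library as a sample, 0 and 3 with the replicate block and 6 and 5 with both. They were 0 and 1 with no filter, 0 and 2 by DESeq2, and 1 and 6 at an unadjusted p under 0.05 with a log2 difference over 0.25. In the CKO they were 2 and 2 with each library as a sample, 3 and 4 with the block added, and 2 and 4 at the unadjusted threshold, and the replicate block alone changed no call there. The unadjusted threshold called 1 gene lower in CKO pSSPCs than in control. Without each replicate, calls ran from 0 to 43 higher and 0 to 28 lower for the controls, 0 to 30 and 0 to 35 for the CKO, 0 to 12 and 0 to 24 for genotype in gpSSPCs, and 0 to 27 and 0 to 31 for genotype in pSSPCs. Every upper value is without replicate 1, where the nearly alike replicates 2 and 3 set the spread. Of all genes, 33.7% and 34.9% were then called higher and lower for the controls and 29.8% and 30.5% for the CKO. For genotype the shares were 20.2% and 19.3% in gpSSPCs and 30.5% and 32% in pSSPCs. With each library as a sample the shares of all genes were 2.1% and 2.43% for the controls and 1.79% and 1.18% for the CKO. With the block added to that they were 8.35% and 8.48% for the controls and 6.4% and 5.57% for the CKO. With no filter they were 0.191% and 0.244% for the controls.

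The median level of covered genes minus that of all protein-coding genes was 2.74 in control gpSSPCs and 3.11 in control pSSPCs, as means of 3 libraries of which 2 are nearly alike. It was 3.75 and 4.75 without length scaling, and 0.02 and -0.19 against genes with a shorter peak, the latter reversed in sign. Peak length near the limit, library depth and 2 RNA samples per group limit these results.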
